A study of Sus scrofa with 11 samples.

Results

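Hepatic stellate cells and the contractile myofibroblasts that derive from them were followed through 9 genes in liver RNA of irradiated pigs. The genes were listed for their known roles outside the matrix, namely ACTA2, TAGLN, DES, PDGFRB, PDGFRA, NGFR, RGS5, LRAT and HGF. All 9 of 9 were among the 12505 genes of the table, and all 9 were among the 11644 genes that reached at least 1 FPKM in at least 2 libraries. FPKM counts fragments per kilobase of transcript, scaled to the mapped fragments of the library. The 11 libraries were 2 controls labelled day 0 and 3 libraries each at 20, 30 and 40 Gy, all irradiated ones labelled day 35. Genotype was given as WT throughout, while the sources used here give neither breed, sex nor age of the animals. Since no control carries the day 35 label, dose and elapsed time cannot be told apart against control. The labels do not tie libraries to separate animals, and the p-values below therefore rest on a spread that may be technical.

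A stellate cell of the healthy liver sits in the space between hepatocytes and the sinusoid, stores vitamin A as retinyl esters made by LRAT, and secretes HGF, a growth factor for hepatocytes. After injury it can lose its retinoid stores, respond to platelet-derived growth factor through PDGFRB, and take on a contractile state marked by ACTA2 and TAGLN. Pericytes and vascular smooth muscle share several of these genes, so the list does not separate stellate cells from other mural cells of the vessel wall.

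The labels call the cell type hepatocyte, whereas markers of other liver cell types were measured as well. The 9 measured hepatocyte markers summed to between 28083 and 72821 FPKM. All 11 endothelial markers, all 9 macrophage markers and 5 of 7 bile duct markers were in the table, none of them at 0 in every library. Only 29 of the 12505 genes were at 0 in every library, so such presence says little. Whether the RNA was that of whole liver or of a hepatocyte preparation with other cells in it was not tested. The 9 stellate cell genes summed to 49.7 and 90.8 FPKM in control, 163, 174 and 122 FPKM at 20 Gy, 130, 126 and 111 FPKM at 30 Gy, and 146, 75.9 and 58.9 FPKM at 40 Gy. In such bulk RNA, fewer cells of a type and less RNA per cell cannot be told apart. Other cell types differed between the same libraries, and their part in the results was not tested. CLEC4G, a lectin of sinusoidal endothelium, had 65.6–95.7 FPKM at 20 Gy, 47.7–84.5 FPKM at 30 Gy and 20.5–164 FPKM at 40 Gy, against 206 and 263 FPKM in control. The other 10 endothelial markers summed to 67.7–88.0 FPKM at 20 Gy, 69.3–77.3 FPKM at 30 Gy and 83.4–116 FPKM at 40 Gy, against 103 and 104 FPKM in control, so that the 40 Gy libraries lay on both sides of control without CLEC4G. The hepatocyte markers summed to 46404–56487 FPKM at 20 Gy, 51496–61613 FPKM at 30 Gy and 28083–30905 FPKM at 40 Gy, against 44748–72821 FPKM in control. The macrophage markers summed to 341–729 FPKM at 20 Gy, 357–734 FPKM at 30 Gy and 501–1183 FPKM at 40 Gy, against 675–888 FPKM in control. T and NK cell markers summed to 26.0–28.8 FPKM at 20 Gy, 23.6–26.0 FPKM at 30 Gy and 11.7–42.4 FPKM at 40 Gy, against 15.8–20.5 FPKM in control. The 3 measured neutrophil markers of 5 listed summed to 0.397–0.850 FPKM at 20 Gy, 0.341–1.01 FPKM at 30 Gy and 7.71–17.9 FPKM at 40 Gy, against 1.53–4.60 FPKM in control.

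Libraries did not all stand as their labels would have them. The first library at 40 Gy, 40Gy-1, stood apart from 40Gy-2 and 40Gy-3. Over 4806 genes the SD of its log2 ratio was 0.858 to 40Gy-2 and 0.889 to 40Gy-3, against 0.35 between these. It was 0.627 to 20Gy-2, 0.682 to 30Gy-1 and 0.687 to 30Gy-2, but 0.841 to 20Gy-1, 0.867 to 20Gy-3 and 0.868 to 30Gy-3. To the controls it was 0.772 and 0.808. COL1A1, a fibrillar collagen chain, was at 139 FPKM in 40Gy-1, 3.24 FPKM in 40Gy-2 and 1.45 FPKM in 40Gy-3. 30Gy-1 and 30Gy-2 were nearly identical, with an SD of 0.137 for their log2 ratio over 4806 genes, and entered the tests as 1 sample. 20Gy-3 and 30Gy-3, which carry different doses, were as close, with an SD of 0.13, whereas the other 53 pairs of libraries lay between 0.305 and 1.01. Results that turn on 40Gy-1, or on 20Gy-3 and 30Gy-3, are therefore given with and without them. Group means are given ± SD, with 3 samples behind those at 20 and 40 Gy and 2 samples behind those of control and of 30 Gy, where the near-identical pair counts once.

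ACTA2 encodes smooth muscle alpha-actin, the usual mark of a myofibroblast (ENSSSCG00000010447, Sscrofa11.1 chromosome 14, 100868145 to 100886732). It had 9.0 and 25.5 FPKM in control, 61.2, 57.7 and 46.2 FPKM at 20 Gy, 45.8, 45.4 and 39.6 FPKM at 30 Gy, and 45.1, 18.3 and 16.3 FPKM at 40 Gy. Every library at 20 and 30 Gy, and 40Gy-1, lay above both controls, while 40Gy-2 and 40Gy-3 lay between them. The group means were 17.3 ± 11.7 FPKM in control, 55.0 ± 7.84 FPKM at 20 Gy, 42.6 ± 4.24 FPKM at 30 Gy and 26.5 ± 16.1 FPKM at 40 Gy. With a mean of 36.4 FPKM over the samples of the fit, ACTA2 was the most abundant of the 9 genes, above 86.0% of the genes tested.

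TAGLN encodes transgelin, an actin-binding protein of smooth muscle and myofibroblasts (ENSSSCG00000015073, chromosome 9, 44561756 to 44567385). It had 9.33 and 23.2 FPKM in control, 49.98, 65.3 and 35.7 FPKM at 20 Gy, 44.3, 41.9 and 33.9 FPKM at 30 Gy, and 35.1, 26.4 and 19.1 FPKM at 40 Gy. Here 8 of 9 irradiated libraries exceeded both controls, the exception being 40Gy-3. The group means were 16.3 ± 9.80 FPKM in control, 50.3 ± 14.8 FPKM at 20 Gy, 38.5 ± 6.47 FPKM at 30 Gy and 26.9 ± 7.98 FPKM at 40 Gy. Both contractile genes thus had the order 20 Gy, 30 Gy, 40 Gy, control in their means. The libraries overlapped between 20 and 30 Gy in TAGLN, and between 30 and 40 Gy and between 40 Gy and control in both.

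DES encodes desmin, the intermediate filament of muscle that also marks stellate cells in rodents (ENSSSCG00000020785, chromosome 15, 121428539 to 121435426). It did not share the profile of ACTA2 and TAGLN. It had 5.78 and 8.95 FPKM in control, 7.38, 5.65 and 6.20 FPKM at 20 Gy, 5.54, 4.03 and 5.35 FPKM at 30 Gy, and 3.77, 7.73 and 5.73 FPKM at 40 Gy. No irradiated library exceeded Control-2, and 6 of 9 lay below both controls, with 40Gy-1 the lowest of all.

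PDGFRB encodes the beta receptor for platelet-derived growth factor, a mitogen receptor of stellate cells and pericytes (ENSSSCG00000022741, chromosome 2, 151155753 to 151192818). It had 9.13 and 12.2 FPKM in control, 14.2, 14.4 and 12.4 FPKM at 20 Gy, 9.76, 9.89 and 11.5 FPKM at 30 Gy, and 18.1, 8.28 and 6.05 FPKM at 40 Gy. The 40 Gy group held both the highest library, 40Gy-1, and the 2 lowest. Its mean of 10.8 ± 6.38 FPKM at 40 Gy therefore lay beside 10.65 ± 2.15 FPKM in control and described none of its 3 libraries.

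NGFR, the low-affinity neurotrophin receptor carried by stellate cells and nerve sheath cells, spread in the same way (ENSSSCG00000017548, chromosome 12, 25699410 to 25720355). It had 9.54 and 12.7 FPKM in control, 21.4, 17.9 and 12.8 FPKM at 20 Gy, 9.82, 9.40 and 11.4 FPKM at 30 Gy, and 23.7, 6.25 and 3.76 FPKM at 40 Gy. Again 40Gy-1 was the highest and 40Gy-2 and 40Gy-3 were the lowest of the 11 libraries. The 30 Gy libraries lay within the range of control or just below it.

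PDGFRA encodes the alpha receptor for platelet-derived growth factor, found on quiescent stellate cells and on fibroblasts (ENSSSCG00000008841, chromosome 8, 40966568 to 41021440). It was the least abundant of the 9 genes, with 1.03 and 1.38 FPKM in control, 1.58, 1.69 and 1.07 FPKM at 20 Gy, 1.505, 1.25 and 1.122 FPKM at 30 Gy, and 1.59, 1.79 and 1.49 FPKM at 40 Gy. It was the only one of the 9 whose 40 Gy libraries all exceeded both controls. The margin was small: 40Gy-3 exceeded Control-2 by less than the distance between the controls.

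RGS5, a regulator of G-protein signalling that marks pericytes, was low in control (ENSSSCG00000037821, chromosome 4, 87286953 to 87340816). It had 2.41 and 1.19 FPKM in control, 2.96, 4.10 and 3.27 FPKM at 20 Gy, 5.61, 6.04 and 3.53 FPKM at 30 Gy, and 11.9, 1.87 and 1.23 FPKM at 40 Gy. All libraries at 20 and 30 Gy exceeded both controls, 40Gy-1 exceeded every other library, and 40Gy-2 and 40Gy-3 lay within the control range.

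LRAT encodes lecithin retinol acyltransferase, which esterifies retinol for storage (ENSSSCG00000008995, chromosome 8, 74412226 to 74428713). It had 0.822 and 1.496 FPKM in control, 1.72, 2.94 and 1.76 FPKM at 20 Gy, 2.77, 2.88 and 1.80 FPKM at 30 Gy, and 3.43, 0.436 and 0.290 FPKM at 40 Gy. The 20 and 30 Gy libraries again exceeded both controls, 40Gy-1 was the highest, and 40Gy-2 and 40Gy-3 were the 2 lowest of all.

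HGF, the hepatocyte growth factor secreted by stellate and endothelial cells, had 2.65 and 4.26 FPKM in control, 2.37, 4.48 and 2.43 FPKM at 20 Gy, 5.35, 5.46 and 3.11 FPKM at 30 Gy, and 3.38, 4.87 and 4.94 FPKM at 40 Gy (ENSSSCG00000015403, chromosome 9, 98437771 to 98513573). At 20 and 30 Gy its higher libraries were 20Gy-2, 30Gy-1 and 30Gy-2 and its lower ones 20Gy-1, 20Gy-3 and 30Gy-3, a division that crosses the dose labels and that RGS5 and LRAT shared. At 40 Gy its order was opposite to that of PDGFRB, NGFR, RGS5 and LRAT, with 40Gy-1 the lowest of the 3. The annotated HGF locus overlaps a long non-coding RNA, LOC110255496, and the sources used here do not say whether strand was kept, which makes its value uncertain.

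**Figure D1:**
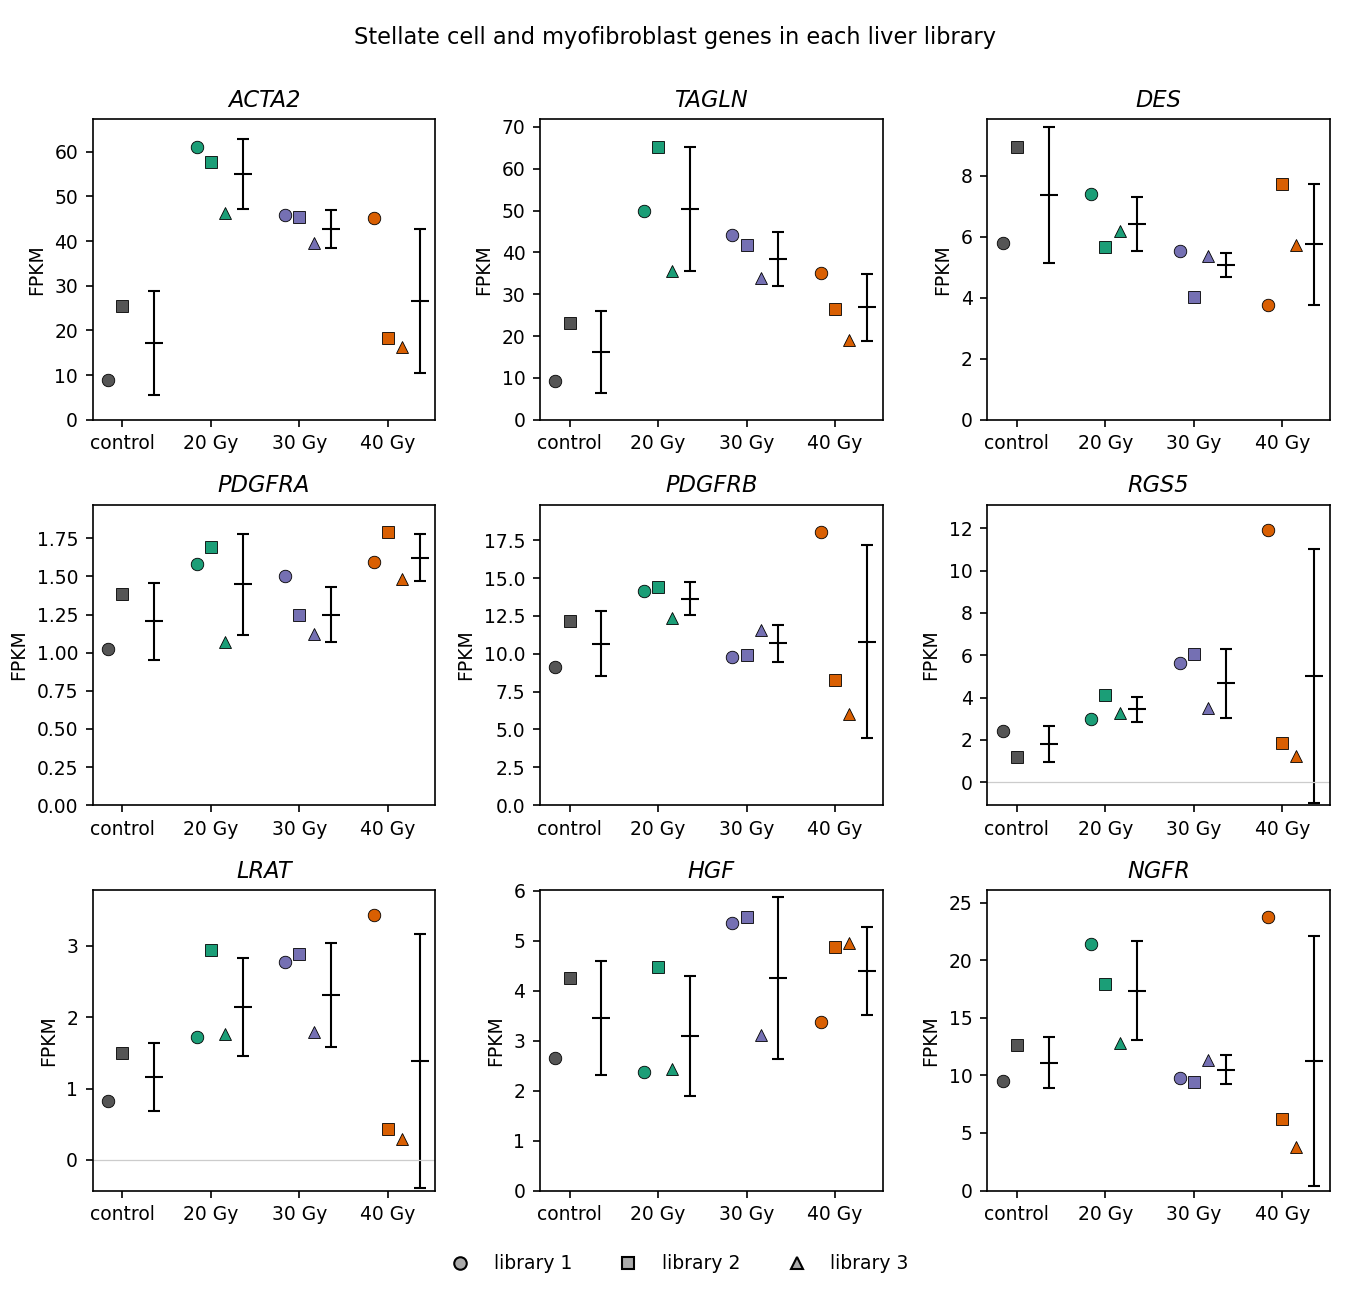
FPKM of each of the 9 genes (y axis, linear) in every library, by group (x axis: control, 20, 30 and 40 Gy); circles, squares and triangles are libraries 1, 2 and 3 of a group, and the bar beside them is mean ± SD, with 30Gy-1 and 30Gy-2 counted as 1 sample, drawn below 0 where the SD exceeds the mean. ACTA2 and TAGLN stood above control at 20 and 30 Gy, and in PDGFRB, NGFR, RGS5 and LRAT the circle at 40 Gy, 40Gy-1, was the highest of the 11 libraries.

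Libraries that did not overlap the controls were counted for each dose. The libraries at 20 Gy all exceeded both controls in 6 of 9 members (ACTA2, TAGLN, PDGFRB, RGS5, LRAT and NGFR), and 19.1% of all genes tested did so. At 30 Gy the same held for 4 of 9 members (ACTA2, TAGLN, RGS5 and LRAT), against 20.1% of all genes, and DES lay below both controls, as did 23.3% of all genes. At 40 Gy only PDGFRA lay above both controls, 1 of 9 members against 19.5% of all genes. In PDGFRB and NGFR the separation at 20 Gy was narrow, since 20Gy-3 exceeded Control-2 by 12.4 against 12.2 FPKM and by 12.8 against 12.7 FPKM.

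No member passed the test in any of the 5 comparisons, which set 20, 30 and 40 Gy and the average of these doses against control, and 40 Gy against the average of 20 and 30 Gy. The test was limma on log2(FPKM + 1), on which scale all changes below are given, with Benjamini-Hochberg adjustment over 11644 genes and a call at an adjusted p under 0.05. The shares of all genes called were 2.53% at 20 Gy, 1.12% at 30 Gy, 4.68% at 40 Gy, 2.89% for the mean of the doses and 15.3% for 40 Gy against the lower doses. At an unadjusted p under 0.05 there were 2 members at 20 Gy, 2 at 30 Gy, 0 at 40 Gy and 2 for the mean of the doses, in each case ACTA2 and TAGLN. In 40 Gy against the lower doses it was ACTA2 alone, 1 of 9. The numbers of all genes at that unadjusted level were 2274, 1476, 2565, 2064 and 3878 in the same order of comparisons. The alternatives that called a member are given with it below.

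The largest changes were those of the contractile genes at 20 Gy. ACTA2 was 1.77 higher in log2 at 20 Gy than in control (SE 0.48, limma adjusted p = 0.0949) and TAGLN was 1.66 higher (SE 0.41, adjusted p = 0.0693). At 30 Gy the differences were 1.42 (SE 0.53, adjusted p = 0.298) and 1.31 (SE 0.44, adjusted p = 0.249). At 40 Gy they were 0.61 (SE 0.48, adjusted p = 0.494) and 0.78 (SE 0.41, adjusted p = 0.299). These comparisons share the 2 control libraries, which themselves lay apart, ACTA2 being at 9.0 FPKM in Control-1 and 25.5 FPKM in Control-2.

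Leaving out 40Gy-1, which is not part of the contrast but enters the spread that all groups share, led to both genes being called at 20 Gy. Without it ACTA2 and TAGLN had the same changes (SE 0.36, adjusted p = 0.0215, and SE 0.39, adjusted p = 0.0333). The share of all genes called was then 9.98%, and the share called higher 5.24%. With 40Gy-1 kept, TAGLN alone was called when the 11 libraries entered as separate samples (1.66, limma adjusted p = 0.0400), when 492 of the 11644 genes were called. It was also called with the replicate block (1.84, adjusted p = 0.0262), when 399 were. The block took the 11 libraries as separate samples too, so both fits counted the near-identical 30Gy-1 and 30Gy-2 separately. For the mean of the doses the block also called TAGLN (1.45, adjusted p = 0.0334), when 440 of the 11644 genes were called. When 20Gy-3 and 30Gy-3 were dropped together with 40Gy-1, an alternative chosen after seeing the data, 2.97% of all genes were called higher, ACTA2 was 1.89 higher (adjusted p = 0.0496) and TAGLN 1.88 higher (adjusted p = 0.0473). Over all alternatives the adjusted p at 20 Gy ran between 0.0215 and 0.456 for ACTA2 and between 0.0262 and 0.365 for TAGLN. The other members differed from control by between -0.15 and 0.69 at 20 Gy and between -0.44 and 1.02 at 30 Gy, in both cases with RGS5 at the upper end and DES at the lower.

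At 40 Gy against control the 7 other members differed by between -0.34 for NGFR and 0.67 for RGS5. Without 40Gy-1, NGFR was 1 of 9 members called, at -1.03 (SE 0.29, limma adjusted p = 0.0420), while 19.1% of all genes were called and 9.63% called lower. It was also called, at -1.03 (adjusted p = 0.0459), when 20Gy-3 and 30Gy-3 were left out in addition, with 7.70% of all genes called lower. RGS5 at 40 Gy differed from control by 0.67 with 40Gy-1 and by -0.11 without it, so its direction rested on that library.

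Between doses at the same day, 40Gy-1 decided which members passed. With all libraries the change at 40 Gy against the mean of 20 and 30 Gy was positive in 2 members and negative in 7, none of them called, with a median of -0.28 against 0.07 over all genes. ACTA2 was at -0.99 (SE 0.39, limma adjusted p = 0.113), TAGLN at -0.71 (SE 0.33, adjusted p = 0.165), LRAT at -0.66 (SE 0.39, adjusted p = 0.264) and NGFR at -0.60 (SE 0.46, adjusted p = 0.392). Without 40Gy-1, 5 of 9 members were called, all lower, when 16.0% of all genes were called lower.

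In that fit LRAT differed by -1.22 (SE 0.22, limma adjusted p = 0.00395) and NGFR by -1.29 (SE 0.25, adjusted p = 0.00524). ACTA2 differed by -1.43 (SE 0.33, adjusted p = 0.0126), RGS5 by -0.97 (SE 0.24, adjusted p = 0.0155) and PDGFRB by -0.69 (SE 0.18, adjusted p = 0.0188). TAGLN, at -0.91 (adjusted p = 0.0785), DES, PDGFRA and HGF did not pass. When 20Gy-3 and 30Gy-3 were left out as well, 4 of 9 members were called, ACTA2, RGS5, LRAT and NGFR, all lower, when 1402 of the 11644 genes were called lower and 23.9% in either direction. PDGFRB was then at -0.67 (adjusted p = 0.0675). When 20Gy-3 and 30Gy-3 alone were left out, no member passed and 1.73% of all genes did. The 40 Gy samples without 40Gy-1 are 2 libraries, and which of the 3 better stands for that dose was not tested.

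Markers of other cell types were called in the same comparison of 40 Gy with the lower doses, with all libraries, and their part in the members' values was not tested. The comparison called 942 of the 11644 genes higher and 840 lower. Of 9 tested hepatocyte markers 3 were lower, ALB, serum albumin (-1.93, limma adjusted p = 0.00310), ASGR1, a subunit of the asialoglycoprotein receptor (-1.49, adjusted p = 0.00720), and TTR, transthyretin (-2.20, adjusted p = 0.0189). All 3 tested neutrophil markers were higher, CSF3R, the receptor for granulocyte colony-stimulating factor (1.42, adjusted p = 0.00191), and the calcium-binding proteins S100A12 (2.69, adjusted p = 0.00249) and S100A8 (1.40, adjusted p = 0.0234). Of 9 macrophage markers 2 were higher, CD163 (1.995, adjusted p = 0.0368) and CD68 (1.59, adjusted p = 0.0348), and of 5 T and NK cell markers 1 was lower, CD3E, a chain of the T cell receptor complex (-0.77, adjusted p = 0.0225). CSF3R and S100A12 kept their calls in all 21 alternatives, while ALB and ASGR1 lost theirs without both 20Gy-3 and 30Gy-3 (adjusted p = 0.0660 and 0.0770). The calls of TTR, CD3E, S100A8, CD163 and CD68 were lost there too and without 30Gy-3 or 40Gy-2, among other libraries. Without 40Gy-1 there were 4 hepatocyte markers lower and 2 higher, 3 neutrophil markers higher, 1 macrophage marker higher and 1 lower, and 4 T and NK cell markers lower. The same fit called 2213 of all 11644 genes higher and 1864 lower.

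**Figure D2:**
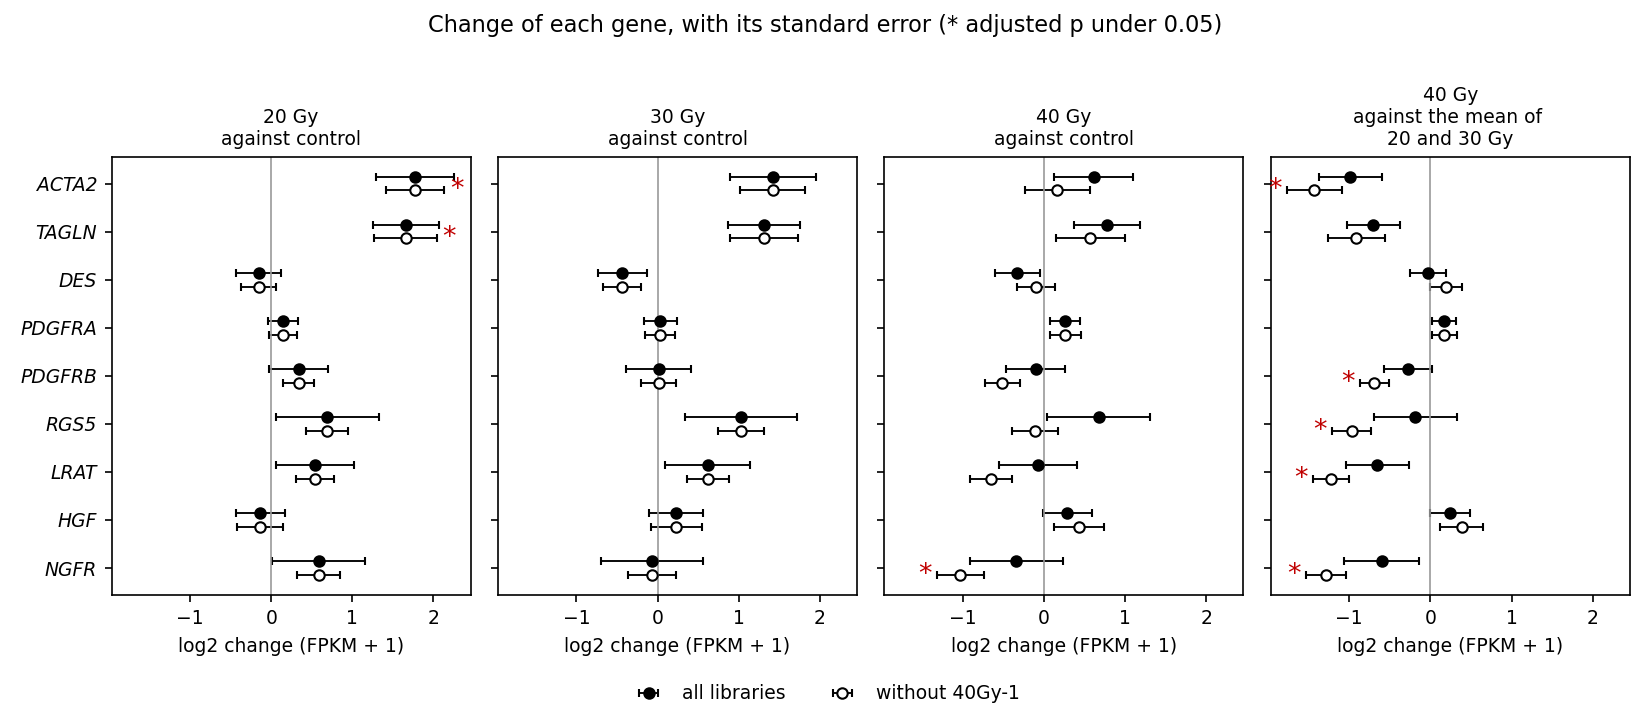
Change of each gene in log2(FPKM + 1) (x axis) with its standard error, in 4 comparisons (panels), with all libraries (filled circles) and without 40Gy-1 (open circles); an asterisk marks an adjusted p under 0.05. Asterisks appear only beside fits without 40Gy-1, at ACTA2 and TAGLN for 20 Gy, at NGFR for 40 Gy, and at ACTA2, PDGFRB, RGS5, LRAT and NGFR for 40 Gy against the lower doses.

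40Gy-1 was the highest of the 11 libraries in 4 of 9 members (PDGFRB, RGS5, LRAT and NGFR) and in 16.0% of all genes tested. It was the lowest in DES, and in 12.1% of all genes. In PDGFRB, LRAT and NGFR the same dose supplied the highest library and the 2 lowest, a pattern of 3 of 9 members and of 2.51% of all genes. The sums of the macrophage markers and of the T and NK cell markers were highest in it as well, though not every marker was. C1QA, a macrophage marker, was at 122 FPKM in 40Gy-1 and 142 FPKM in Control-1. The T and NK cell markers CD2, CD247 and CD3E were lower in 40Gy-1 than in 20Gy-1, while NKG7 alone was at 23.3 FPKM in 40Gy-1. The macrophage markers summed to 1183 FPKM in 40Gy-1, 508 FPKM in 40Gy-2 and 501 FPKM in 40Gy-3, and the T and NK cell markers to 42.4, 13.2 and 11.7 FPKM in the same order of libraries. Neutrophil markers had the opposite order, at 7.71, 11.4 and 17.9 FPKM, and hepatocyte markers summed to 28083, 28975 and 30905 FPKM. The endothelial markers were split. CLEC4G was at 20.5 FPKM in 40Gy-1, 164 FPKM in 40Gy-2 and 146 FPKM in 40Gy-3, whereas the other 10 summed to 116, 99.8 and 83.4 FPKM, and 6 of these 10, PECAM1, CDH5, ENG, TEK, LYVE1 and EMCN, were highest of the 3 in 40Gy-1. The part of these cell types in the difference was not tested.

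Likeness between members was read across the 10 samples of the fit. These correlations are descriptions: the points share libraries in which 40Gy-1 stands apart, and 20Gy-3 and 30Gy-3 are close to 1 point. PDGFRB and NGFR were the closest of the 36 pairs, with Pearson's r of 0.98 and Spearman's rho of 0.988 on log2(FPKM + 1), and r of 0.956 without the 2 samples farthest from the median of PDGFRB. ACTA2 and TAGLN followed with r of 0.95 and rho of 0.964, and r of 0.854 without the 2 samples farthest from the median of ACTA2. LRAT was about as close to several members: its r was 0.845 with PDGFRB, 0.822 with NGFR, 0.815 with RGS5 and 0.794 with ACTA2. By rho LRAT was closest to RGS5, at 0.915, against 0.794 with PDGFRB and 0.745 with NGFR. Its r was 0.951 with RGS5 without the 2 samples farthest from the median of RGS5, and 0.666 with PDGFRB without the 2 farthest from that of PDGFRB. DES ran against RGS5 with r of -0.82 and rho of -0.83, but with r of -0.51 without the 2 samples farthest from the median of DES. PDGFRA and HGF had r between -0.50 and 0.53 with every other member.

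**Figure D3:**
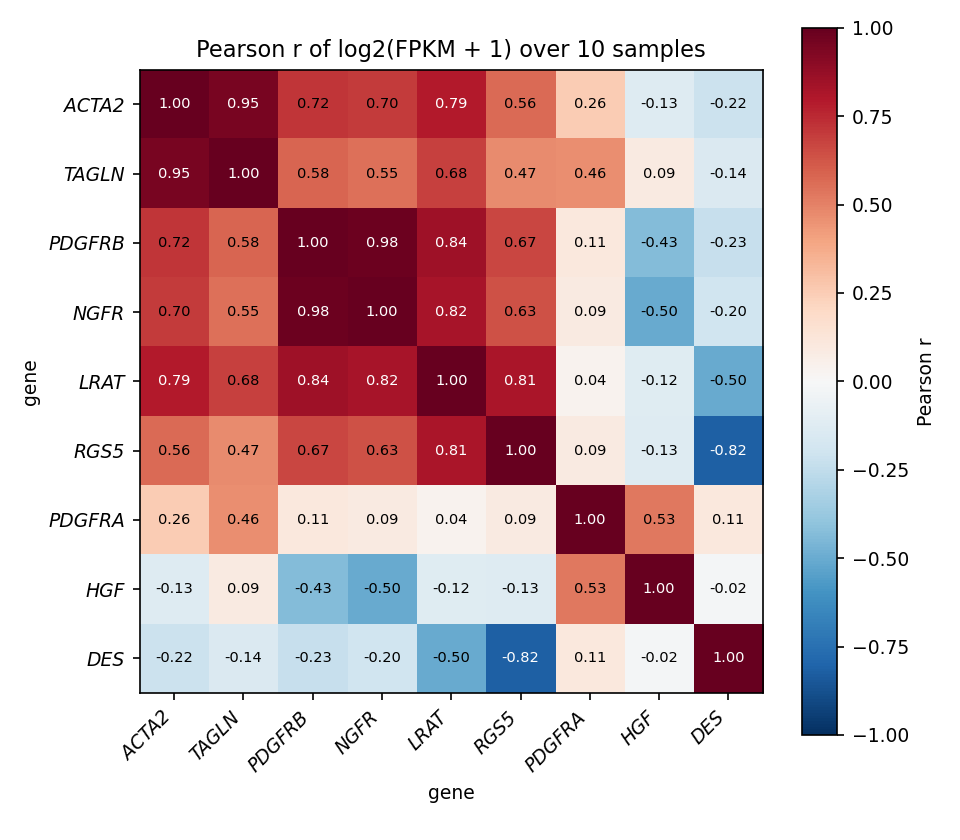
Pearson's r between each pair of the 9 genes (both axes) on log2(FPKM + 1) over the 10 samples, on a colour scale that runs from -1 to 1. The darkest red cells off the diagonal are PDGFRB with NGFR, at 0.98, and ACTA2 with TAGLN, at 0.95, and the darkest blue is DES with RGS5, at -0.82.

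The 3 genes most like each member were taken from all genes with a symbol and a mean of at least 5 FPKM. For PDGFRB, NGFR and LRAT they included 1 gene of the transforming growth factor beta pathway, TGFB1 or LTBP1. For the other members they included none. TGFB1, the ligand itself, was next to NGFR as the gene most like PDGFRB, with r of 0.954 over the 10 samples, and next to PDGFRB as the gene most like NGFR, with r of 0.953. Without the 2 samples farthest from the median of PDGFRB or of NGFR, these r were 0.876 and 0.878. TGFB1 had 6.86 and 8.80 FPKM in control, 14.3, 12.3 and 11.97 FPKM at 20 Gy, 10.9, 9.44 and 11.103 FPKM at 30 Gy, and 19.6, 4.41 and 3.19 FPKM at 40 Gy. Like both receptors it was highest in 40Gy-1 and lowest in 40Gy-2 and 40Gy-3, a pattern of 2.51% of all genes.

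LTBP1, a protein that holds latent transforming growth factor beta in the matrix, was the gene most like LRAT, with r of 0.989. It had 4.02 and 5.04 FPKM in control, 5.06, 8.12 and 5.56 FPKM at 20 Gy, 8.52, 8.07 and 5.61 FPKM at 30 Gy, and 9.04, 3.08 and 2.94 FPKM at 40 Gy. ACTA2 was most like CHD3 (r of 0.953), then TAGLN and NARF, and TAGLN was most like SNAPC4 (r of 0.993), then PKD1 and ACTA2. RGS5 was most like SH2B3, MFSD12 and TNFSF13, with r between 0.966 and 0.983. The closest genes to DES were MAF1, ZNF205 and GLI4 (r between 0.902 and 0.93), to PDGFRA were PRR14, ZNF598 and SLC25A22 (0.926 to 0.936), and to HGF were TIMM17A, AIMP2 and SRSF3 (0.919 to 0.937). HABP4 and RGL2 followed LTBP1 for LRAT, and ATP13A2 came after TGFB1 for both PDGFRB and NGFR.

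The contractile programme around ACTA2 and TAGLN was read from 16 further listed genes, of which 15 were tested and MYOCD was not in the table. At 20 Gy 1 of the 15 was higher than in control and none lower: MRTFA, a coactivator of actin-driven transcription, at 1.49 (SE 0.30, limma adjusted p = 0.0373). MRTFA had 3.83 and 3.02 FPKM in control, 13.4, 13.7 and 7.86 FPKM at 20 Gy, 8.47, 7.36 and 8.15 FPKM at 30 Gy, and 10.8, 9.58 and 5.62 FPKM at 40 Gy, so that every irradiated library exceeded both controls. Its call at 20 Gy was lost in 7 of 21 alternatives, without either control, 20Gy-1, 20Gy-2, 30Gy-3, 40Gy-2 or both 20Gy-3 and 30Gy-3, with an adjusted p of up to 0.233. No gene of the 15 was called by limma at 30 or at 40 Gy against control, with 3 and 1 of them at an unadjusted p under 0.05. The median change of the 15 was 0.45 at 20 Gy, 0.47 at 30 Gy and -0.18 at 40 Gy, against -0.03, -0.03 and 0.06 over all genes.

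In 40 Gy against the lower doses, 4 of the 15 were lower and none higher, when 840 of the 11644 genes were called lower and 942 higher. They were ACTG2, an enteric smooth muscle actin (-0.97, limma adjusted p = 0.00761), CNN1, calponin (-1.34, adjusted p = 0.0137), MYLK, myosin light chain kinase (-0.98, adjusted p = 0.0129), and MYH11, smooth muscle myosin heavy chain (-1.02, adjusted p = 0.0290). In these 4, 40Gy-1 lay below every library at 20 and 30 Gy, whereas in ACTA2 and TAGLN it exceeded 30Gy-3. MYH11 was at 0.637 FPKM in 40Gy-1, 1.66 FPKM in 40Gy-2 and 1.63 FPKM in 40Gy-3. The fit without 40Gy-1 called 1864 of all 11644 genes lower and 2213 higher. Without 40Gy-1 there were 9 of 15 lower and 1 higher, and without 20Gy-3 and 30Gy-3 none was called in either direction. With all 3 left out, 6 of 15 were lower, when 1402 of the 11644 genes were called lower. ACTG2 lost its call in 1 of 21 alternatives, without both 20Gy-3 and 30Gy-3 (adjusted p = 0.0774). The other 3 also lost theirs without 30Gy-3, 40Gy-2 or 40Gy-3, and MYH11 in addition without 20Gy-1 or 20Gy-3, with adjusted p of up to 0.120 for CNN1, 0.127 for MYLK and 0.194 for MYH11.

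Of 9 tested pericyte and mural genes besides RGS5, none was called by limma against control at any dose with all libraries. An unadjusted p under 0.05 was reached by 2, 3 and 1 of them at 20, 30 and 40 Gy. At 40 Gy 3 of 9 were lower than at the lower doses, when 840 of the 11644 genes were called lower. KCNJ8 and ABCC9 encode the channel and its sulfonylurea receptor that open together in mural cells, and NDUFA4L2 is a mitochondrial protein enriched in pericytes. KCNJ8 had 1.14 and 2.57 FPKM in control, 11.8, 4.59 and 10.3 FPKM at 20 Gy, 3.59, 3.86 and 11.11 FPKM at 30 Gy, and 1.66, 1.86 and 1.71 FPKM at 40 Gy. It was thus high in 20Gy-1, 20Gy-3 and 30Gy-3, the libraries in which RGS5 was the lower at those doses, and it was not high in 40Gy-1. KCNJ8 was at -1.61 (SE 0.36, limma adjusted p = 0.0206), ABCC9 at -1.10 (SE 0.24, adjusted p = 0.0195) and NDUFA4L2 at -0.76 (SE 0.21, adjusted p = 0.0451) in 40 Gy against the lower doses. Without 40Gy-1 there were 4 of 9 lower in that comparison, when 16.0% of all genes were called lower. Against control RGS4 was then higher at 20 and at 30 Gy, 1 of 9 each, when 610 and 273 of the 11644 genes were called higher. GUCY1B1 was lower at 40 Gy, 1 of 9 against 9.63% of all genes. Both were named after their values were seen. At 40 Gy against the lower doses, none was lower without 20Gy-3 and 30Gy-3. Without all 3 libraries there were 2, when 1402 of the 11644 genes were called lower. The calls of KCNJ8 and ABCC9 were also lost without 30Gy-3, 40Gy-2 or 40Gy-3, with adjusted p of up to 0.132 and 0.147. That of NDUFA4L2 was lost in 11 of 21 alternatives, without either control, any 40 Gy library, 20Gy-1, 20Gy-3, 30Gy-1 or 30Gy-3 among them, with an adjusted p of up to 0.186.

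The ligands of the 2 platelet-derived growth factor receptors were all 4 tested, and limma called none in any comparison with all libraries, where 0 of 4 had an unadjusted p under 0.05. Without 40Gy-1, PDGFC was lower at 40 Gy than at the lower doses, 1 of 4, when 16.0% of all genes were called lower. PDGFB, the main ligand of PDGFRB, had 1.64 and 2.54 FPKM in control, 3.38, 3.39 and 2.98 FPKM at 20 Gy, 3.78, 3.36 and 3.58 FPKM at 30 Gy, and 5.25, 2.80 and 1.75 FPKM at 40 Gy. It was higher than both controls in 8 of 9 irradiated libraries and highest in 40Gy-1, as PDGFRB was. PDGFB differed from control by 0.47 at 20 Gy (SE 0.31, limma adjusted p = 0.420). PDGFC was also highest in 40Gy-1, at 8.90 FPKM, with 3.47 and 3.38 FPKM in the other two libraries at 40 Gy.

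Of 18 tested genes of the transforming growth factor beta pathway, 1 was higher and 1 lower at 20 Gy, none was called at 30 Gy (4 had an unadjusted p under 0.05 in limma), and 1 was higher at 40 Gy. CCN2, connective tissue growth factor and a target of the pathway, was 1.24 higher at 20 Gy (SE 0.25, limma adjusted p = 0.0336), and every irradiated library, between 4.97 and 9.32 FPKM, exceeded both controls, at 2.64 and 2.85 FPKM. TGFBR2, the ligand-binding receptor, differed by -1.18 at 20 Gy (SE 0.24, adjusted p = 0.0352). TGFBR1, the signalling receptor, was 0.96 higher at 40 Gy (SE 0.19, adjusted p = 0.0251), with 2.61, 2.36 and 2.93 FPKM at 40 Gy against 0.916 and 0.809 FPKM in control. These calls were lost without either control, without 20Gy-1, without 40Gy-2, without 40Gy-3 and without both 20Gy-3 and 30Gy-3, with adjusted p of up to 0.181 for CCN2, 0.216 for TGFBR2 and 0.135 for TGFBR1. Leaving out 20Gy-3 ended those of CCN2 and TGFBR2, and leaving out 30Gy-3 that of TGFBR2.

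In 40 Gy against the lower doses 3 of these 18 genes were higher, TGFBR1 (0.66), TGFBR2 (0.86) and SKIL (0.56), a repressor of the pathway. INHBA, an activin subunit, was lower (-1.57, SE 0.31, limma adjusted p = 0.0129), with 4.20 FPKM in 40Gy-1 and 1.005 and 1.02 FPKM in 40Gy-2 and 40Gy-3. Over all 11644 genes, 942 were called higher and 840 lower with all libraries, and 2213 and 1864 without 40Gy-1. Without 40Gy-1, 20Gy-3 and 30Gy-3 these numbers were 1378 and 1402. Of the 18 genes, 4 were higher and 5 lower without 40Gy-1, and none was called without 20Gy-3 and 30Gy-3. Without all 3 libraries there were 3 higher and 4 lower. The calls of TGFBR1, TGFBR2, SKIL and INHBA were each lost without 40Gy-2 or 40Gy-3, with adjusted p of up to 0.0891, 0.157, 0.146 and 0.0831 over the alternatives. Those of the first 3 were also lost without 30Gy-3, those of TGFBR1 and SKIL without 20Gy-1, and that of SKIL under upper quartile scaling.

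LRAT belongs to the storage and turnover of retinoids, and genes of this pathway had changes of over 4 in log2. Of 18 tested genes besides LRAT, 1 was higher at 20 Gy, 1 higher at 30 Gy, and 1 higher and 1 lower at 40 Gy, all against control. In 40 Gy against the lower doses 1 was higher and 5 were lower, when 942 of the 11644 genes were called higher and 840 lower. The median change was -0.33 in that comparison, against 0.07 over all genes. The same comparison called 2213 of all 11644 genes higher and 1864 lower without 40Gy-1. It called 71 and 130 without 20Gy-3 and 30Gy-3, and 1378 and 1402 without all 3. For the 18 retinoid genes the counts were 2 higher and 7 lower without 40Gy-1. They were 1 and 1 without 20Gy-3 and 30Gy-3, and 2 and 5 without all 3.

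CYP26A1, the cytochrome that degrades retinoic acid, had 2.39 and 1.72 FPKM in control, 4.12, 8.69 and 5.99 FPKM at 20 Gy, 9.57, 9.85 and 5.22 FPKM at 30 Gy, and 29.7, 65.1 and 73.9 FPKM at 40 Gy. Every irradiated library exceeded both controls, and every 40 Gy library exceeded every library at the lower doses. It was 4.14 higher at 40 Gy than in control (SE 0.42, limma adjusted p = 0.00349) and 2.82 higher than at the lower doses (SE 0.34, adjusted p = 0.00179). Both calls were kept in all 21 alternatives, with adjusted p of up to 0.0345 and 0.0301. In 40Gy-2 and 40Gy-3, where LRAT was lowest, CYP26A1 was highest, but the other libraries did not run opposite in the same way. 40Gy-1 had the highest LRAT, at 3.43 FPKM, and more CYP26A1 than any library at 20 or 30 Gy. At 20 and 30 Gy the higher libraries were 20Gy-2, 30Gy-1 and 30Gy-2 in both genes.

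PNPLA3, a lipase that releases retinol from its esters in human stellate cells and that hepatocytes express as well, had 0.724 and 0.408 FPKM in control, 21.6, 54.0 and 15.3 FPKM at 20 Gy, 42.9, 40.4 and 15.5 FPKM at 30 Gy, and 0.943, 0.490 and 0.353 FPKM at 40 Gy. The 6 libraries at 20 and 30 Gy did not overlap the others. It was 4.13 higher at 20 Gy (SE 0.52, limma adjusted p = 0.00506) and 4.09 higher at 30 Gy (SE 0.57, adjusted p = 0.0131) than in control, and differed by -4.09 in 40 Gy against the lower doses (SE 0.42, adjusted p = 8.24e-04). The last call was kept in all 21 alternatives, with an adjusted p of up to 0.00730. The call at 20 Gy was lost without Control-2 (adjusted p = 0.0698), and that at 30 Gy without Control-1 (adjusted p = 0.05965) or Control-2 (adjusted p = 0.113).

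RDH11, a retinal reductase, differed from control by -1.73 at 40 Gy (SE 0.30, limma adjusted p = 0.0170), a call lost without Control-2, 40Gy-2, 40Gy-3 or both 20Gy-3 and 30Gy-3, with an adjusted p of up to 0.0803. The other 4 genes that were lower at 40 Gy than at the lower doses were TTR, the plasma carrier partner of retinol-binding protein (-2.20), RDH10, a retinol dehydrogenase (-1.21), DHRS3, a retinal reductase (-0.87), and RARRES2, chemerin (-0.83). TTR is also among the hepatocyte markers. Each of these 4 calls was lost without 30Gy-3, 40Gy-2, 40Gy-3 or both 20Gy-3 and 30Gy-3, with adjusted p of up to 0.130, 0.156, 0.143 and 0.221. Those of RDH10, DHRS3 and RARRES2 were also lost without 20Gy-1, those of RDH10 and RARRES2 without 20Gy-3, that of RARRES2 without 20Gy-2, and that of DHRS3 under quantile normalization.

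**Figure D4:**
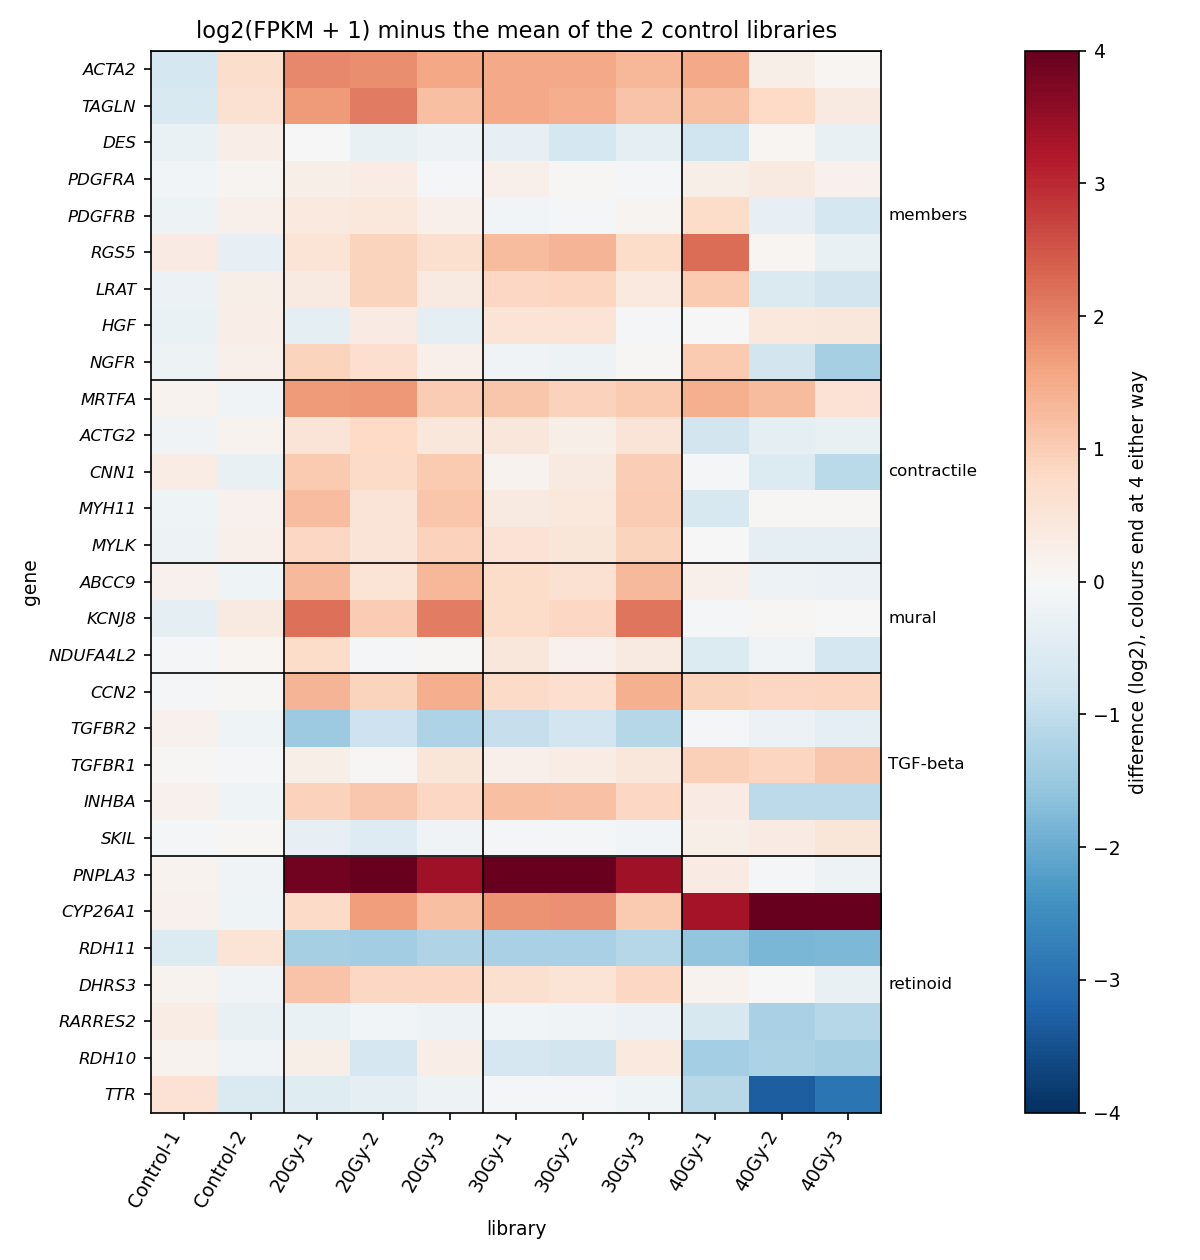
Difference of each library (columns) from the mean of the 2 controls in log2(FPKM + 1), by gene (rows): the 9 genes at the top (members), then the called genes of the contractile, mural, TGF-beta and retinoid lists, with colours that end at 4 either way. The top block shows ACTA2 and TAGLN red from 20Gy-1 to 40Gy-1, the bottom block PNPLA3 red only at 20 and 30 Gy and CYP26A1 reddest at 40 Gy.

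HGF acts through its receptor MET after proteases cleave its precursor, and of 8 tested genes of this step limma called none in any comparison with all libraries, without 40Gy-1, or without 20Gy-3 and 30Gy-3. With all libraries at most 2 of the 8 had an unadjusted p under 0.05 in a comparison. HGFAC, the circulating activator of HGF made by hepatocytes, had 540 and 345 FPKM in control, 312, 419 and 303 FPKM at 20 Gy, 415, 392 and 302 FPKM at 30 Gy, and 280, 334 and 327 FPKM at 40 Gy. Its higher libraries at 20 and 30 Gy were 20Gy-2, 30Gy-1 and 30Gy-2, as for HGF. MET had between 4.42 and 8.65 FPKM in the irradiated libraries, against 7.90 and 3.43 FPKM in control. Of the neurotrophins and receptors related to NGFR, 3 were tested and 1 was called, MAGED1, an adaptor that binds NGFR, which was lower at 40 Gy than at the lower doses (-1.10, SE 0.23, limma adjusted p = 0.0166). In that comparison 840 of the 11644 genes were called lower. The call of MAGED1 was lost without 40Gy-2, 40Gy-3 or both 20Gy-3 and 30Gy-3, with an adjusted p of up to 0.0852.

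Further genes known from stellate cells gave no call against control at any dose among 14 tested, with 1, 2 and 4 of them at an unadjusted p under 0.05 in limma at 20, 30 and 40 Gy. In 40 Gy against the lower doses 1 was higher, AGTR1, the angiotensin receptor (0.94, limma adjusted p = 0.0313), and 2 were lower, HHIP, a hedgehog antagonist (-1.44, adjusted p = 0.0224), and RSPO3, an enhancer of Wnt signalling (-0.61, adjusted p = 0.0395). In that comparison 942 of the 11644 genes were called higher and 840 lower. All 3 calls were lost without 40Gy-2, 40Gy-3 or both 20Gy-3 and 30Gy-3, with adjusted p of up to 0.153, 0.110 and 0.205. Those of AGTR1 and RSPO3 were also lost without either control, 20Gy-3 or 30Gy-3, and in addition without 20Gy-1 for AGTR1 and 20Gy-2 for RSPO3. GFAP, a stellate cell marker in rodents, had 0.0280 and 0.116 FPKM in control and at most 1.36 FPKM in any irradiated library.

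Among markers of portal fibroblasts and mesothelium only 3 of 11 were in the table, GLI1, PI16 and CD34. GLI1, a transcription factor of hedgehog signalling in perivascular fibroblasts, was lower than in control. PI16 and CD34 were not called in any comparison with all libraries. The median change of the 3 was 0.11, 0.24 and 0.10 at 20, 30 and 40 Gy against control, so GLI1 does not stand for the list. GLI1 had 6.77 and 14.1 FPKM in control, 1.003, 2.01 and 0.811 FPKM at 20 Gy, 1.40, 1.90 and 0.581 FPKM at 30 Gy, and 1.64, 0.0795 and 0.144 FPKM at 40 Gy. No irradiated library reached the lower control. It differed by -2.29 at 20 Gy (SE 0.46, limma adjusted p = 0.0342) and by -2.87 at 40 Gy (SE 0.46, adjusted p = 0.0125). The call at 40 Gy was lost without Control-2 (adjusted p = 0.0994). That at 20 Gy was lost without either control, 20Gy-1, 20Gy-3 or both 20Gy-3 and 30Gy-3, and with a pseudocount of 0.1, with an adjusted p of up to 0.256.

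The fibrillar matrix, which myofibroblasts secrete, was set beside the members by counts. Of 15 tested matrix genes none was called by limma at 20 or 30 Gy against control with all libraries, where 4 and 1 had an unadjusted p under 0.05. Their median change was 0.94 at 20 Gy and 0.94 at 30 Gy, against -0.03 over all genes at both doses. COL1A1 had 1.69 and 1.34 FPKM in control, 24.5, 35.6 and 13.6 FPKM at 20 Gy and 17.9, 17.1 and 14.2 FPKM at 30 Gy, so that every library at these doses exceeded both controls. Without 40Gy-1, 610 and 273 of all 11644 genes were called higher at 20 and 30 Gy. Of the 15 matrix genes 6 were then higher at 20 Gy and 4 at 30 Gy, COL1A1 among them at both doses, and none lower. When 20Gy-3 and 30Gy-3 were left out as well, 6 and 1 of the 15 were higher, when 346 and 50 of all 11644 genes were. Of the 15, 1 was higher at 40 Gy than in control and than at the lower doses, COL14A1, a collagen that associates with fibrils, at 1.31 (SE 0.26, limma adjusted p = 0.0265) and 1.08 (SE 0.21, adjusted p = 0.0123). Of the 11644 genes, 217 and 942 were called higher in these comparisons. Both calls of COL14A1 were lost without 40Gy-2, 40Gy-3 or both 20Gy-3 and 30Gy-3. The one against control was also lost without either control or 20Gy-1, and the other without 30Gy-3, with adjusted p of up to 0.145 and 0.121. COL14A1 had 3.97 and 3.52 FPKM in control, 3.94–4.70 FPKM at 20 Gy, 4.43–5.52 FPKM at 30 Gy, and 7.03, 12.7 and 13.7 FPKM at 40 Gy, with 40Gy-1 the lowest of that dose. Without 40Gy-1, 8 of 15 were lower at 40 Gy than at the lower doses and 1 higher, when 1864 of all 11644 genes were called lower and 2213 higher. The 16 matrix genes in the table summed to 994 FPKM in 40Gy-1, 530 FPKM in 40Gy-2 and 433 FPKM in 40Gy-3. This was the same order of 40 Gy libraries as in ACTA2, TAGLN, PDGFRB, NGFR, RGS5 and LRAT, and opposite to that of COL14A1. FN1, fibronectin, which had another order, held 306, 451 and 364 FPKM of these sums, so they understate the distance of 40Gy-1 in the other matrix genes.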

How the data were processed

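Liver RNA was extracted with Trizol and sequenced from TruSeq libraries as paired ends of 150 bp, per the labels' protocols. The authors deposited 1 table of FPKM values for 12505 genes and 11 libraries. HISAT2, Cufflinks and HTSeq, and the builds Sscrofa11.1 (pig) and mm10 (mouse), stand in the submitters' processing notes, where neither their roles nor their order are stated, and the gene IDs are those of pig. FPKM is scaled by library total, so a few very abundant genes lower all others. The deposited FPKM summed to 520839–949840 per library, 10236–10866 genes reached 1 FPKM, and no whole-read steps were found, so depth is unknown and no counting interval is given.

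All 11 columns were matched to samples by name. Symbols were paired with 10561 IDs, and 1944 IDs had none. Coordinates are those of the Sscrofa11.1 RefSeq gene table, matched by symbol. Values were analysed as log2(FPKM + 1), which understates changes of low genes. limma 3.58.1 (R 4.3.3; eBayes with trend, two-sided) was fitted with 4 group means to 10 samples, 30Gy-1 and 30Gy-2 averaged as 1, with 6 residual degrees of freedom. Tests covered genes that reached 1 FPKM in 2 or more libraries. Alternatives were a pseudocount of 0.1, no filter and a stricter one, quantile and upper quartile scaling, no trend, and leaving out libraries. Others were 11 separate libraries, and a replicate block with the 11 libraries separate. The fit was tested on simulated data. Figures were drawn with matplotlib 3.10.9 and summaries made with pandas 2.3.3 in Python 3.11.15. The 9 genes, the gene lists and the tests were chosen with earlier results of these data known. Named besides the 9 are the 3 genes most like each, the called genes of each list and at most 3 abundant ones. GFAP, PDGFB, PDGFC, COL1A1, FN1, TGFB1, LTBP1, C1QA, NKG7 and CLEC4G were given values after these were seen, as was the sum of the endothelial markers without CLEC4G. CD2 and CD247 were also named after their values were seen.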

Additional observations from a re-analysis of the deposited data

How the results depend on the processing

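With limma, no member was called under another pseudocount, either filter, quantile or upper quartile scaling, or without the trend, and the numbers of all genes called stayed within 1.5 times. The replicate numbers did not pair the samples: deviations from the group means correlated between -0.616 and 0.645 in 15 pairs with the same number and between -0.815 and 0.737 in 30 pairs with different numbers. With 11 separate libraries 1 member was called at 20 Gy, TAGLN (1.66, adjusted p = 0.0400), and the genes called were 492 at 20 Gy, 353 at 30 Gy, 861 at 40 Gy and 548 for the mean of the doses. With the replicate block, which also took the 11 libraries as separate samples, 1 member was called at 20 Gy and 1 for the mean of the doses. It was TAGLN in both (1.84, limma adjusted p = 0.0262, and 1.45, adjusted p = 0.0334). The genes called with the block were 399 at 20 Gy, 244 at 30 Gy and 440 for the mean of the doses. Without 20Gy-3 and 30Gy-3 the genes called were 56, 8, 122, 34 and 201 in the 5 comparisons, against 295, 130, 545, 336 and 1782 with all libraries. Without 40Gy-1 as well, members called were 2 at 20 Gy, 1 at 40 Gy and 4 for 40 Gy against the lower doses, and the genes called were 598 at 20 Gy, 1709 at 40 Gy, 549 for the mean of the doses and 2780 for 40 Gy against the lower doses. Leaving out 1 library gave 0 to 2 members and 48 to 1162 genes at 20 Gy, 14 to 515 genes at 30 Gy, 0 to 1 member and 73 to 2222 genes at 40 Gy, 25 to 1045 genes for the mean of the doses, and 0 to 5 members and 431 to 4077 genes for 40 Gy against the lower doses.

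Changes that turned sign were all uncalled. At 30 Gy PDGFRA was at -0.0749 under quantile normalization, PDGFRB at -0.0225 with 11 libraries and -0.0933 without 20Gy-3 and 30Gy-3 (with or without 40Gy-1), and NGFR at 0.0286 under upper quartile scaling and 0.10 with the replicate block. At 40 Gy LRAT was at 0.10 with the replicate block, and without 40Gy-1, 20Gy-3 and 30Gy-3 RGS5 was at -0.11. In that last setting the mean of the doses gave -0.0679 for PDGFRB and -0.14 for NGFR, and 40 Gy against the lower doses gave 0.22 for DES. Leaving out 1 library moved the change at 20 Gy between -0.43 and 0.12 for DES and between -0.40 and 0.13 for HGF. At 30 Gy it moved between -0.0864 and 0.15 for PDGFRA, -0.18 and 0.20 for PDGFRB, -0.0347 and 0.55 for HGF, and -0.26 and 0.12 for NGFR. At 40 Gy it moved between -0.0935 and 1.31 for ACTA2, -0.51 and 0.20 for PDGFRB, -0.11 and 1.16 for RGS5, -0.65 and 0.24 for LRAT, and -1.03 and 0.16 for NGFR. For the mean of the doses it moved between -0.11 and 0.27 for PDGFRB, -0.14 and 0.39 for HGF, and -0.17 and 0.25 for NGFR, and for 40 Gy against the lower doses between -0.24 and 0.20 for DES, -0.69 and 0.0272 for PDGFRB, and -0.97 and 0.30 for RGS5. With depth unknown, what low values such as those of PDGFRA and LRAT can resolve is unknown too.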
